A study of Mus musculus with 30 samples.

Results

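The genes described here are 50 type I interferon-stimulated genes, given as a list of gene names with no rule on their levels. Each name matched 1 of the 37991 gene identifiers in the count table, and all 50 passed the filter on low counts. RNA was sequenced from 30 libraries, each of 500 cells sorted from the spleen of 1 of 12 female mice aged 9.4 to 15.7 weeks. Of the mice, 6 were wild-type (WT) B6 animals and 6 were TLR7.1 animals, a transgenic line that carries extra copies of Tlr7, the endosomal sensor of single-stranded RNA. The labels give no treatment for either genotype. From each WT mouse came 1 library of red pulp macrophages (RPM), which clear old red blood cells in the spleen, and 1 of monocytes (Mono). TLR7.1 mice gave the same 2 libraries and 1 of inflammatory hemophagocytes (iHPC), which engulf blood cells, so the groups are WT Mono, TLR7.1 Mono, WT RPM, TLR7.1 RPM and TLR7.1 iHPC, with n = 6 in each. There was no WT iHPC group, so no genotype comparison exists for iHPC. The sorts took live cells with CD45.2 and without SiglecF or Ly6G. Mono were then gated on Ly6C, Ccr2 and CD11b, and the other populations lacked Ly6C. RPM were CD31low, VCAMhi and F4/80+ with CD11b absent or intermediate, and iHPC were CD31hi, VCAMlow and F4/80low with CD11b.

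Type I interferons bind a receptor made of IFNAR1 and IFNAR2, whose kinases JAK1 and TYK2 pass the signal on by phosphorylation. A complex that contains IRF9 then binds the interferon-stimulated response element in the nucleus and switches on a large set of antiviral genes. Many of the same genes can also be driven by other interferons or directly by interferon regulatory factors, and several have a basal level without infection. In macrophages and monocytes, TLR7 signals through MyD88 and can lead to interferon production by way of IRF7 and IRF5.

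Promoters were searched for the core letters of the response element, GAAANNGAA, on both strands, where matches may overlap each other. RefSeq windows of 300 bases on GRCm38.p6 were at hand for 38 of the 50 genes, and 22 of them (57.9%) held at least 1 match, against 9.76% of the 27025 genes with such a window. With 1 more A required at the end of the motif, the shares were 47.4% and 3.99%. The stretches shown are a selection, and other genes named below, such as Bst2 and Ifih1, also held matches. Each stretch has 60 bases in the direction of the gene, with the matched letters, on either strand, in capitals. The first 3 belong to genes that were higher in TLR7.1 RPM, the next 4 are 2 pairs of near copies, and the last belongs to a gene that was lower in iHPC.
Rsad2, chr12:26456537-26456596, minus strand: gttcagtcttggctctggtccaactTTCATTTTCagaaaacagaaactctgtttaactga
Isg15, chr4:156200862-156200921, minus strand: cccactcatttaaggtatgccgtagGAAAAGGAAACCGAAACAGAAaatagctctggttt
Oas3, chr5:120777700-120777759, minus strand: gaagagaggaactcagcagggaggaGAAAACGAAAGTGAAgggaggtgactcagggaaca
Oas1a, chr5:120907526-120907585, minus strand: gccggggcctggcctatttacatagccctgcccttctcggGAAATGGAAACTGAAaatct
Oas1g, chr5:120887614-120887673, minus strand: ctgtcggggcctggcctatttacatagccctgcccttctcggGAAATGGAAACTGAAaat
Ifit3, chr19:34583383-34583442, plus strand: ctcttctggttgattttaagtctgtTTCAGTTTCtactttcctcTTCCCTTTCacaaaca
Ifit3b, chr19:34607779-34607838, plus strand: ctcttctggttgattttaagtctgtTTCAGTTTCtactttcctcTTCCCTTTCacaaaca
Lgals9, chr11:78984944-78985003, minus strand: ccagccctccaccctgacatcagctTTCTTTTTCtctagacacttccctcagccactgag
Isg15 held 3 overlapping matches that lie 57 to 69 bases before its start, and Rsad2 held 1, at 110 bases. The stretches of Ifit3 and Ifit3b are the same letter for letter. Cmpk2, Isg20 and Oasl2 had no match in their windows, which says only that these letters are not in them. A match is a description of the sequence, and no binding was measured here.

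The smallest library held 95002 counts and the largest 1932427 (median 1157458.5), and RPM were the shallowest, with group medians of 544757 in WT and 820242 in TLR7.1 mice. Values are CPM, counts normalised to the TMM-adjusted size of each library, given as the range and median of a group's 6 libraries, or as mean ± SD. Differences are log2 fold changes ± SE from edgeR's quasi-likelihood test on all 30 libraries. A gene was called where its p, adjusted by the Benjamini-Hochberg method over 11030 genes, was under 0.05. The labels name separate mice, but libraries of 1 mouse share that animal. Tlr7 was at 215 to 366 CPM (median 305) in WT Mono and 767 to 1183 CPM (median 1029.8) in TLR7.1 Mono, and was 107 to 384 (median 202) in WT RPM, 497 to 1531 (median 1001) in TLR7.1 RPM and 907 to 1271 (median 1133) in iHPC. The summed level of 8 monocyte markers was 4996 to 7003 CPM in WT Mono and 61.1 to 124 in iHPC, and that of 8 red pulp macrophage markers was 8651 to 15940.0 in WT RPM and 1137 to 2219 in iHPC. Of the 50 genes, 39 were at their group's lowest in the WT Mono library of mouse 24028, 32 in the TLR7.1 Mono library of mouse 24380 and 28 in its iHPC library, which held 292507 counts. In bulk RNA from sorted cells, fewer cells with a transcript and less of it per cell cannot be told apart.

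Monocytes held the most interferon-stimulated RNA on average. The summed level of the 50 genes ran from 8127 to 12890.3 CPM in WT Mono (mean 11124 ± 1721) and from 9461 to 12211 in TLR7.1 Mono (11141 ± 962). It was 5828 to 8052 in WT RPM (6935 ± 868), 6831 to 9512 in TLR7.1 RPM (8002 ± 863) and 4494 to 7710.1 in iHPC (6187 ± 1120). No iHPC library and no WT RPM library reached the lowest Mono library. The highest TLR7.1 RPM library, at 9512, lay above the lowest library of each Mono group. The ranges of the 3 groups other than Mono overlapped. By group mean, 24 of the 50 genes were highest in TLR7.1 Mono, 15 in WT Mono, 6 in TLR7.1 RPM, 3 in WT RPM and 2 in iHPC. The lowest group was iHPC for 22 genes and WT RPM for 19. No such count over all genes is given here, so whether these orders are particular to the 50 genes was not tested.

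**Figure D1:**
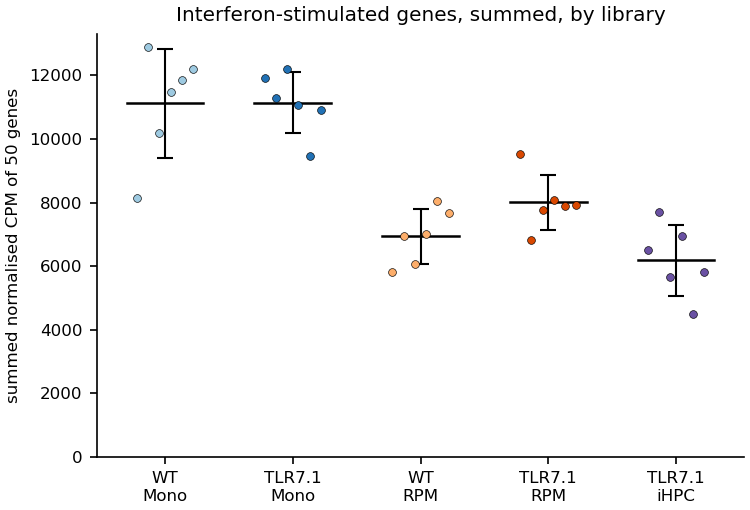
Summed normalised CPM of the 50 interferon-stimulated genes (y axis) in each of the 6 libraries of the 5 groups (x axis). Points are libraries and bars show the mean ± SD. The lowest Mono library, at 8127 CPM, lies above all iHPC and WT RPM libraries.

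**Figure D2:**
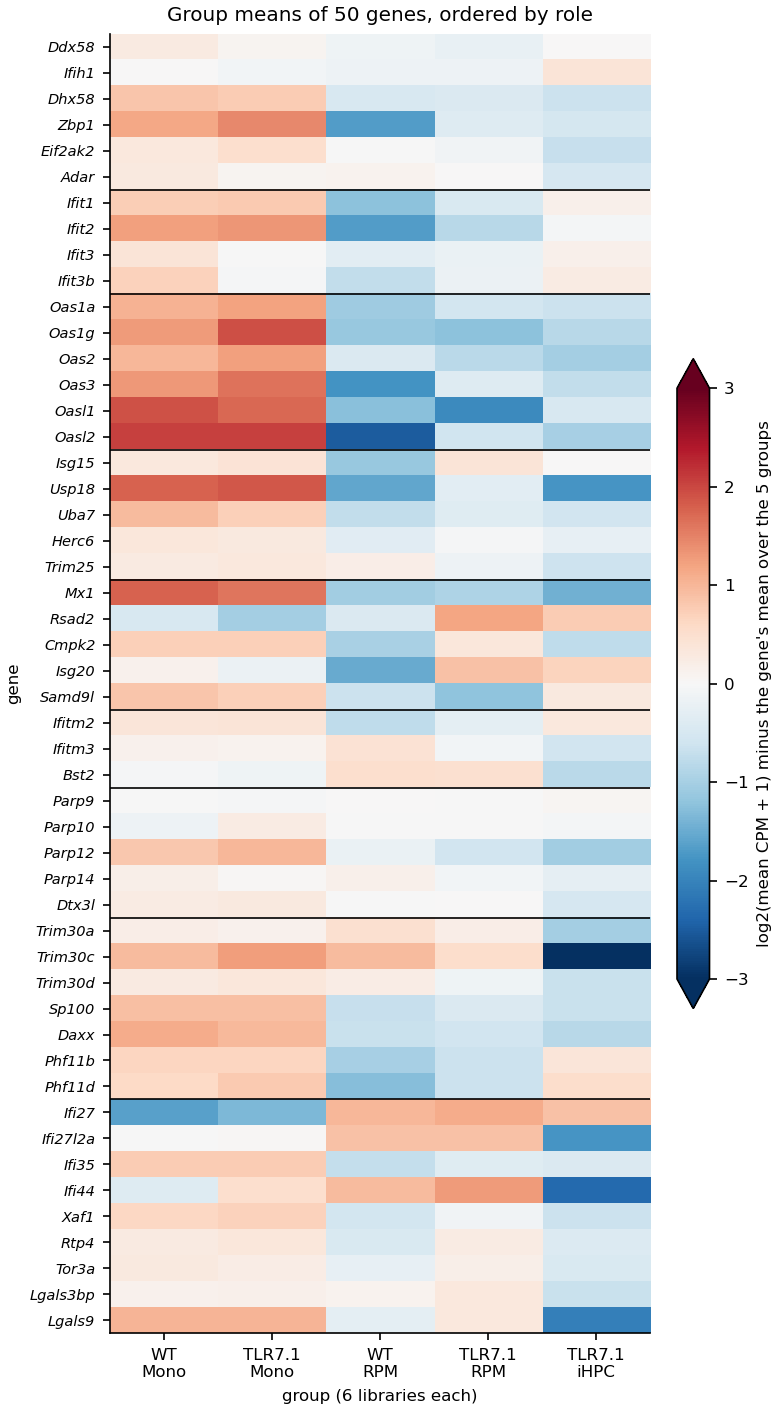
Group means of the 50 genes (rows, by role, separated by lines) in the 5 groups (columns), as log2 of mean CPM plus 1, minus the gene's mean over the groups. Red is above that mean and blue below. The Oas genes, Usp18 and Mx1 are red in both Mono groups, and Ifi27, Rsad2 and Isg20 depart from that pattern.

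Per kilobase of exon, the membrane proteins stood highest. Ifitm3 was at a mean of 834 normalised CPM per kb in WT Mono and 1038 in WT RPM, Ifitm2 at 514 and 237, and Ifi27l2a at 389 and 722. Oas3 and Ifi44 were among the scarcest, at 10.6 and 4.05 in WT Mono. Ifitm3 was lowest in the largest library of both WT groups. In WT Mono it was 690.2 CPM at 1234014 counts and 443 at 1932427, and in WT RPM 1124 at 95002 and 320.3 at 1511480. In these Mono libraries it had 1.22 and 1.27 reads per exonic base, and no gene in any library passed 1.59. The part of library size in the levels and order of these membrane proteins was not tested. The ratio of the highest to the lowest group mean was smallest for Parp9 (1.06), Parp10 (1.32) and Parp14 (1.35), while the PARP gene Parp12 had one of 4.22. Oasl2 had a ratio of 24.5 and Trim30c one of 111.

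The TLR7.1 genotype was compared with WT first in Mono. None of the 50 genes was called in either direction. Of all genes tested, 1.8% were called higher and 0.299% lower. The median log2 fold change over the 50 genes was 0.01, against -0.02 over all genes, with 28 of the 50 above 0 and 22 below. The SE of a single gene ran from 0.14 to 0.63 with a median of 0.28. DESeq2 called 0 as well, and 1 gene had an unadjusted p under 0.05 in edgeR. That gene was Rsad2, at 108 to 249 CPM (median 161) in WT Mono and 70.3 to 159 CPM (median 122) in TLR7.1 Mono. Its log2 fold change was -0.53 ± 0.25 (adjusted p = 0.604). Its libraries overlapped between the genotypes.

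Genes of 3 roles show the levels of both genotypes in Mono. Sp100, a component of nuclear bodies, was at 709.7 to 937 CPM (median 865) in WT and 798 to 920.2 CPM (median 852) in TLR7.1 Mono. Oasl2, an OAS-like protein, was at 344 to 740.4 CPM (median 694) and 432 to 743 CPM (median 645). Ifitm3, which blocks virus entry at membranes, was at 443 to 690.2 CPM (median 536) and 505 to 702 CPM (median 524). The ranges overlapped for all 3 genes. In Mono, Ifitm3 held 1.15 to 1.32 reads per exonic base, where the densest gene of any library had 1.59. Whether its CPM could have shown a genotype difference so near that limit was not tested.
Within collection dates the signs were mixed. On log2 of CPM plus 1, the median TLR7.1 minus WT difference over the 50 genes was 0.18 on 13 December, 0.22 on 21 December and -0.20 on 26 December. These dates had 2 TLR7.1 mice each and 2, 1 and 3 WT mice, and the WT library that was lowest for 39 genes came from the first of them. Neutrophil markers moved with genotype in Mono: 4 of the 4 tested were called higher, and the summed level of the 8 listed was 1.03 to 5.99 CPM in WT and 69.1 to 1546 in TLR7.1 Mono. Their part in the values of the interferon-stimulated genes was not tested.

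In RPM, 6 of the 50 genes were higher in TLR7.1 than in WT mice and 0 were lower. Of all genes tested, 4.48% were called higher and 3.77% lower. The 6 were Rsad2, Isg20, Isg15, Cmpk2, Oas3 and Oasl2, each by more than 2-fold. The median log2 fold change over the 50 genes was 0.18, against -0.01 over all genes, with 31 above 0 and 19 below. The other 44 genes were not called, among them Mx1, at -0.13 ± 0.53, Ifit3, at 0.08 ± 0.37, and Sp100, at 0.22 ± 0.18.

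**Figure D3:**
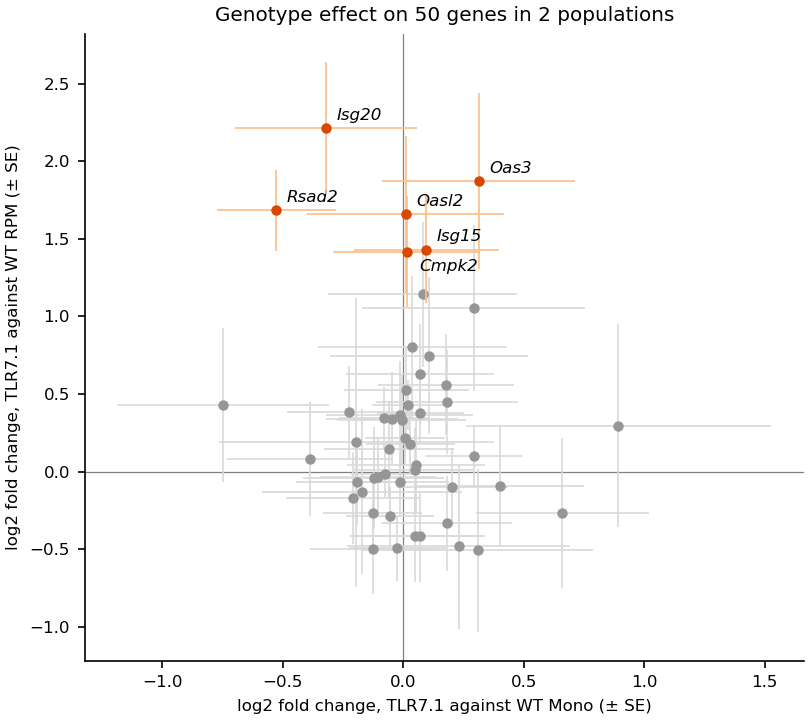
Log2 fold change of TLR7.1 against WT in RPM (y axis) and in Mono (x axis) for each of the 50 genes, with SE bars. Orange points are the 6 genes called in RPM. They lie between 1.42 and 2.22 on the y axis and between -0.53 and 0.31 on the x axis.

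Rsad2 encodes viperin, a radical SAM enzyme that makes a nucleotide analogue which stops viral RNA synthesis. It was at 108 to 299.7 CPM (median 159) in WT RPM and 390.0 to 758 CPM (median 534) in TLR7.1 RPM. Every TLR7.1 library lay above every WT library, and the log2 fold change was 1.68 ± 0.26 (adjusted p = 0.000129). It was called in all 20 settings tried, with log2 fold changes of 1.32 to 1.85. Isg20, an RNA exonuclease, was at 0 to 114 CPM (median 26.5) in WT RPM and 96.3 to 435 CPM (median 240.3) in TLR7.1 RPM, a log2 fold change of 2.22 ± 0.42 (adjusted p = 0.000971). Its ranges overlapped, and the WT libraries of mice 24028 and 24117 stood above the other 4.

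Isg15 encodes a ubiquitin-like protein that is linked to other proteins. It was at 3.44 to 61.2 CPM (median 33.1) in WT RPM and 68.2 to 119.6 CPM (median 83.9) in TLR7.1 RPM. The groups did not overlap, and the log2 fold change was 1.43 ± 0.34 (adjusted p = 0.00774). Of the enzymes that handle ISG15, none was called. Usp18, which removes it and also binds IFNAR2 to dampen signalling, was at 0 to 90.1 CPM (median 23.0) in WT RPM and 7.81 to 108 CPM (median 95.3) in TLR7.1 RPM, a log2 fold change of 1.14 ± 0.47 (adjusted p = 0.13).
Cmpk2, a nucleotide kinase of mitochondria whose gene lies directly beside Rsad2 on the opposite strand, was at 16.1 to 51.6 CPM (median 33.3) in WT RPM and 19.9 to 128 CPM (median 102) in TLR7.1 RPM. Its log2 fold change was 1.42 ± 0.36 (adjusted p = 0.0113). Of the TLR7.1 libraries, 4 lay above all WT libraries, and those of mice 24308 and 24380 lay within the WT range.

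Active OAS enzymes make short adenylate chains that switch on RNase L, and 2 of the 6 listed OAS and OAS-like genes were called. Oas3 was at 0 to 21.4 CPM (median 5.60) in WT RPM and 0 to 45.5 CPM (median 22.8) in TLR7.1 RPM, a log2 fold change of 1.87 ± 0.57 (adjusted p = 0.0348). These are small numbers: all 6 WT libraries together held 22 counts of Oas3, and the TLR7.1 libraries 113. Oasl2 was at 0 to 77.2 CPM (median 21.0) in WT RPM and 3.99 to 221 CPM (median 94.8) in TLR7.1 RPM, a log2 fold change of 1.66 ± 0.51 (adjusted p = 0.040). Both genes overlapped between the genotypes. The other 4 OAS genes had log2 fold changes from -0.48 (Oas2) to 0.45 (Oas1a).

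**Figure D4:**
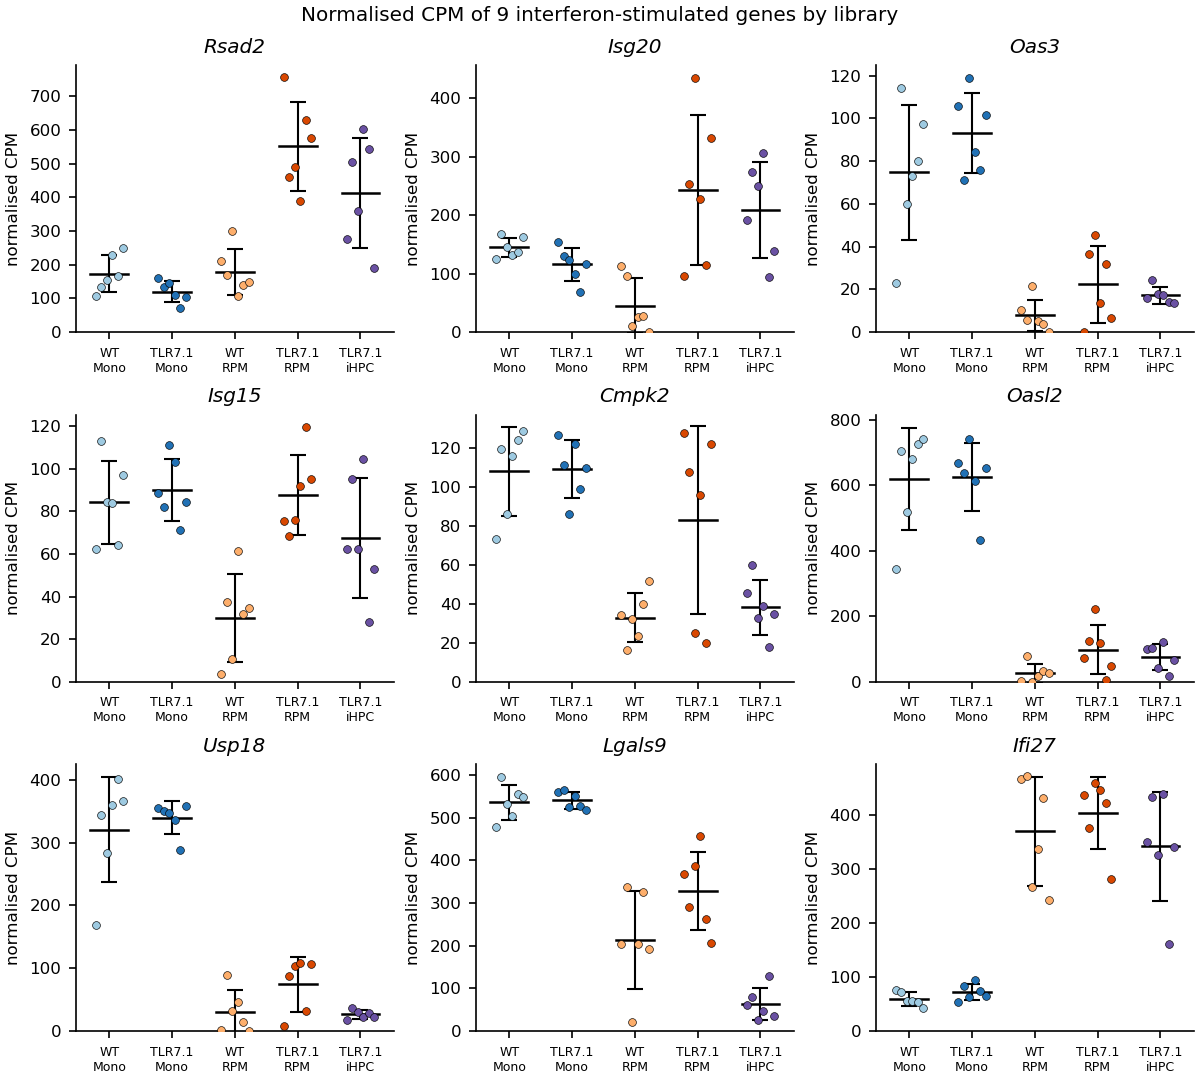
Normalised CPM (y axes, each from 0) of 9 genes in each library of the 5 groups (x axes). Points are libraries and bars show the mean ± SD, n = 6. Rsad2 is higher in TLR7.1 RPM, at 390.0 to 758 CPM, than in all WT and Mono libraries, while Usp18 and Oasl2 are higher in all Mono libraries than in the others.

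These calls differed in how firmly they held. With the spread estimated from the 12 RPM libraries alone, Rsad2 was the 1 call left, and Isg20 had an adjusted p of 0.0555, Isg15 of 0.140, Cmpk2 of 0.186, Oasl2 of 0.241 and Oas3 of 0.449. With all libraries thinned to 95002 counts, Rsad2 and Isg20 remained. Oas3 and Oasl2 both lost their calls without mouse 24107, 24308, 24214, 24415 or 24416, which left 4. Oasl2 was also not called without mouse 24028, 24323 or 24261, with adjusted p from 0.0572 to 0.0704. Without mouse 24117 alone the count was 10, with 9 higher, 1 lower and Oas3 not called (adjusted p = 0.0515). Within dates, Rsad2, Isg20, Isg15 and Cmpk2 were above 0 on all 3, and Oas3 and Oasl2 were not. For Rsad2 the differences were 1.64, 0.83 and 1.91 on 13, 21 and 26 December, on log2 of CPM plus 1.

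Markers of other cells moved with genotype in RPM. Of the erythroid markers 3 of 7 were called higher, of the platelet and megakaryocyte markers 3 of 5 and of the plasma cell markers 2 of 4 tested. The summed level of 5 plasma cell markers was 5.98 to 1029.9 CPM (median 28.3) in WT RPM and 112 to 2048 (median 1800.1) in TLR7.1 RPM. That of 7 erythroid markers was 207 to 3233 (median 763) and 1530.1 to 2982 (median 1934). For 6 T cell markers it was 51.6 to 274 (median 75.7) and 23.3 to 1192 (median 210.3). For 8 neutrophil markers it was 0 to 15.4 (median 3.44) and 8.67 to 404 (median 26.9). Their part in the 6 calls was not tested. Plasmacytoid dendritic cells make much interferon: of 8 listed markers Siglech and Klk1 had 0 counts in all groups, and none of the 3 tested was called in either genotype comparison. The summed level of the 8 was 1127 to 1443 CPM in WT Mono, 1116 to 1313 in TLR7.1 Mono, 489 to 783 in WT RPM, 584 to 707 in TLR7.1 RPM and 1004 to 1285 in iHPC. Pacsin1 was also at 0 counts in TLR7.1 RPM, and Ccr9 and Pacsin1 were in iHPC, where 4 of the 8 were thus at 0. The sums rest on the markers left and do not by themselves show such cells.

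An interaction test of whether genotype acted differently in the 2 populations, as RPM effect minus Mono effect, was called for 2 of the 50 genes, both higher. Of all genes tested, 0.399% were called higher and 0.29% lower. For Rsad2 the difference was 2.21 ± 0.36 (adjusted p = 0.000929) and for Isg20 it was 2.54 ± 0.57 (adjusted p = 0.0231). Rsad2 kept its call in all 21 settings. Isg20 had an adjusted p of 0.0609 without the filter on low counts and 0.0505 on thinned counts, and between 0.0505 and 0.0821 when mouse 24323, 24308, 24214, 24261, 24415 or 24304 was left out. The interaction was not called for Isg15, at 1.34 ± 0.45 (adjusted p = 0.192), Cmpk2, at 1.40 ± 0.47 (adjusted p = 0.181), Oas3, at 1.56 ± 0.69 (adjusted p = 0.387), or Oasl2, at 1.65 ± 0.65 (adjusted p = 0.308). For these 4 genes a difference in genotype effect between the populations was thus not shown.

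More of the 50 genes were called between populations than between genotypes. In WT mice, 29 of the 50 genes were lower in RPM than in Mono and 3 were higher. Of all genes tested, 22.5% were called lower and 23.7% higher. The median log2 fold change over the 50 genes was -1.11, against -0.02 over all genes. In TLR7.1 mice, 24 were lower in RPM than in Mono and 5 were higher, where 22.6% of all genes were called lower and 23.9% higher. The median was -0.56, against -0.03 over all genes. Compared with Mono of the same mice, iHPC had 31 of the 50 genes lower and 2 higher. Of all genes tested, 19.4% were called lower and 19.3% higher. The median was -0.99, against 0.005 over all genes. Between iHPC and TLR7.1 RPM, 12 genes were lower in iHPC and 4 higher, where 13.5% of all genes were called lower and 13.6% higher. The median there was -0.28, against -0.005 over all genes. The 3 comparisons within TLR7.1 mice use the same libraries, so their values stand side by side and are not independent of each other.

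**Figure D5:**
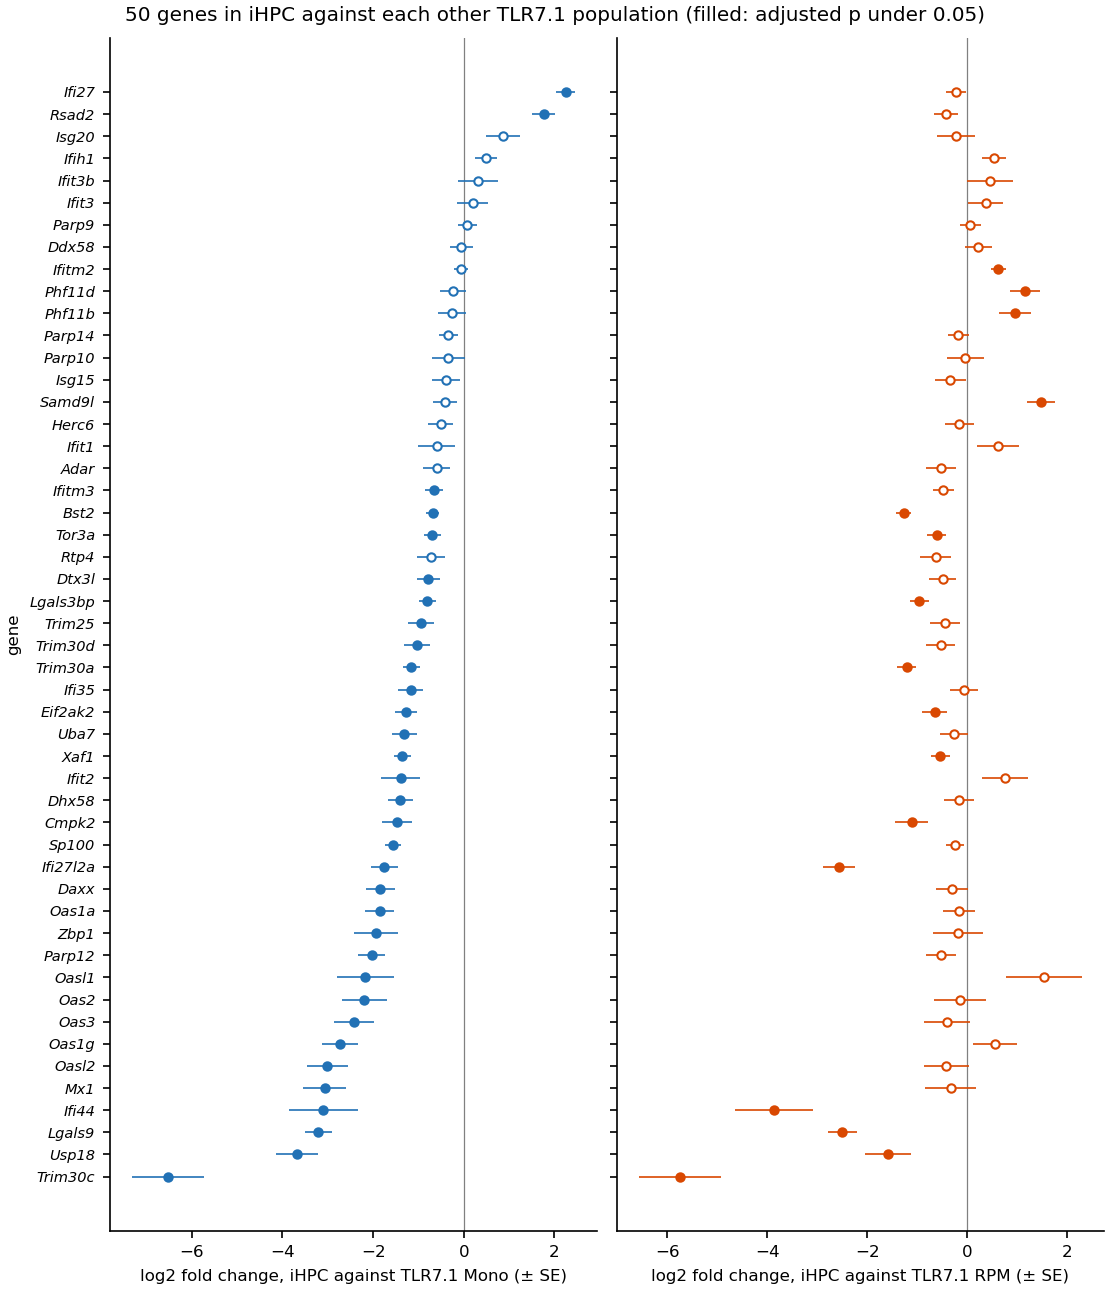
Log2 fold change ± SE of each of the 50 genes (rows, ordered by the left panel) in iHPC against TLR7.1 Mono (left) and against TLR7.1 RPM (right). Filled points are called. On the left 31 filled points lie below 0 and 2 above, and on the right 12 lie below and 4 above.

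Among the sensors and editors of RNA and DNA, 3 of 6 were lower in iHPC than in Mono, 3 in TLR7.1 RPM and 2 in WT RPM, and none was higher. The shares of all genes called lower, 19.4%, 22.6% and 22.5% in these comparisons, stand beside the counts of each role below. The third gene in TLR7.1 RPM, Eif2ak2 (PKR), lost its call without mouse 24068 (adjusted p = 0.0666), 24107 (0.113) or 24261 (0.155), and on thinned counts (0.313). Zbp1, which senses nucleic acids in the Z form, was at 166 to 358 (median 221) and 267 to 345 CPM (median 290.1) in WT and TLR7.1 Mono, 0 to 166 CPM (median 87.9) in TLR7.1 RPM and 10.6 to 108 CPM (median 81.2) in iHPC. Both groups lay below all TLR7.1 Mono libraries, with log2 fold changes of -1.75 ± 0.49 (adjusted p = 0.0041) for TLR7.1 RPM and -1.93 ± 0.49 (adjusted p = 0.0022) for iHPC. Dhx58 (LGP2) was lower in the same 2 comparisons, at -1.24 ± 0.29 and -1.40 ± 0.28, the latter not called on thinned counts, at -0.91 (adjusted p = 0.0911). Ifih1, which encodes MDA5, a sensor of long double-stranded RNA, was at 106 to 198 CPM (median 174) in TLR7.1 Mono, 90.0 to 240.3 CPM (median 165) in TLR7.1 RPM and 141 to 289 CPM (median 237) in iHPC, and the groups overlapped. It was not called in any comparison, with 0.48 ± 0.24 (adjusted p = 0.112) in iHPC against Mono, though with the mouse as a block it was higher in iHPC than in RPM, at 0.56 (adjusted p = 0.0482). Ddx58 (RIG-I) and Adar were not called in any comparison either.

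The IFIT proteins bind viral RNA ends, and 3 of the 4 genes were lower in WT RPM than in WT Mono, though Ifit3b was not called without mouse 24416 (adjusted p = 0.113) or on thinned counts (0.144). Ifit3, the fourth, was called lower there with the mouse as a block, at -0.73 (adjusted p = 0.00847). In TLR7.1 RPM 2 were lower, and Ifit1 was not called without mouse 24308 (adjusted p = 0.0915). In iHPC only Ifit2 was lower than in Mono, at -1.39 ± 0.43 (adjusted p = 0.0102), and without mouse 24308 its adjusted p was 0.0717. Ifit3 was at 54.1 to 203 CPM (median 152) in TLR7.1 Mono and 31.7 to 291 CPM (median 175) in iHPC, and was not called, at 0.19 ± 0.35 (adjusted p = 0.691). The iHPC libraries spread from 31.7 to 290.6 in Ifit3, with mouse 24380 lowest and mouse 24107 highest. Ifit3 and Ifit3b are near copies, as their shared promoter stretch shows, and reads could have been split between them.

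The OAS family was the one role in which all genes were lower than in Mono in each of the 3 comparisons: 6 of 6 in WT RPM, 6 of 6 in TLR7.1 RPM and 6 of 6 in iHPC. In WT RPM Oas2 was not called without mouse 24214 (adjusted p = 0.0695) or without the filter on low counts (0.0515). The medians of their log2 fold changes were -2.97, -2.33 and -2.30. Oasl2 was at 432 to 743 CPM (median 645) in TLR7.1 Mono, 3.99 to 221 CPM (median 94.8) in TLR7.1 RPM and 17.6 to 120.3 CPM (median 83.5) in iHPC. Its lowest Mono library lay above every library of the other populations, and the log2 fold change was -4.24 ± 0.52 (adjusted p = 7.06e-08) in WT RPM and -3.01 ± 0.45 (adjusted p = 4.0e-06) in iHPC.
Oas1g was at 77.5 to 133 CPM (median 102) in TLR7.1 Mono, 2.33 to 18.2 CPM (median 11.9) in TLR7.1 RPM and 0 to 21.1 CPM (median 16.1) in iHPC, without overlap between Mono and the others. Oas1g and Oas1a are near copies, so their separate counts are uncertain. Oasl1 was at 23.4 to 74.5 CPM (median 58.1) in TLR7.1 Mono and 0 to 15.2 CPM (median 0.687) in TLR7.1 RPM, where 3 libraries had 0 counts and all 6 together had 19. None of the 6 genes was called between iHPC and TLR7.1 RPM, and Oasl1 had the widest difference there, at 1.54 ± 0.75 (adjusted p = 0.135).

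ISG15 and its enzymes were split. Usp18 was at 288 to 359 CPM (median 349) in TLR7.1 Mono and 18.5 to 36.6 CPM (median 25.5) in iHPC, with no overlap, at -3.69 ± 0.46 (adjusted p = 1.03e-07) in log2 fold change. Against TLR7.1 RPM, at 7.81 to 108 CPM (median 95.3), it was also lower in iHPC (-1.58 ± 0.46, adjusted p = 0.00941), with overlap, and the adjusted p was 0.0514 without mouse 24261 and 0.0577 without mouse 24304. Uba7, the enzyme that activates ISG15, was lower than in Mono in WT RPM (-1.66 ± 0.29), TLR7.1 RPM (-1.05 ± 0.27) and iHPC (-1.31 ± 0.27). On thinned counts Uba7 was not called in TLR7.1 RPM, at -0.78 (adjusted p = 0.102). Isg15 itself was not called between TLR7.1 Mono, at 71.2 to 111 CPM (median 86.4), and iHPC, at 28.2 to 105 CPM (median 62.3), with -0.39 ± 0.31 (adjusted p = 0.333). Between WT RPM and WT Mono it was lower, at -1.39 ± 0.34 (adjusted p = 0.000959). Trim25, a ubiquitin ligase that acts on RIG-I, was lower in iHPC than in Mono (-0.95 ± 0.29, adjusted p = 0.0086) and not called in RPM, except that with the mouse as a block it was lower in TLR7.1 RPM, at -0.65 (adjusted p = 0.0277). Herc6, the ligase that attaches ISG15 in mice, was called lower in WT RPM than in WT Mono (-0.74 ± 0.30, adjusted p = 0.0397), but not without mouse 24117, 24214, 24415 or 24416, with adjusted p from 0.0910 to 0.130. With the mouse as a block, which pairs RPM and Mono of 1 animal, the Herc6 call was lost (-0.76, adjusted p = 0.0512), as it was on thinned counts (adjusted p = 0.109).

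The other antiviral effectors held genes of opposite direction. Mx1, a dynamin-like GTPase that B6 mice carry in a defective form, was at 118 to 220.1 CPM (median 189) in TLR7.1 Mono, 0 to 79.7 CPM (median 26.8) in TLR7.1 RPM and 7.76 to 40.3 CPM (median 20.4) in iHPC. Both populations lay below all Mono libraries, with log2 fold changes of -2.74 ± 0.48 (adjusted p = 2.01e-05) and -3.07 ± 0.48 (adjusted p = 3.63e-06). Rsad2 went the other way: iHPC, at 191 to 602 CPM (median 432), and TLR7.1 RPM, at 390.0 to 758 CPM (median 534), both lay above every TLR7.1 Mono library, at 70.3 to 159 (median 122). The log2 fold changes were 1.76 ± 0.25 (adjusted p = 9.32e-07) in iHPC and 2.18 ± 0.26 (adjusted p = 1.39e-08) in RPM. In WT mice Rsad2 was not called between RPM and Mono, at -0.03 ± 0.26 (adjusted p = 0.941). Its neighbour Cmpk2 was at 17.6 to 59.9 CPM (median 36.9) in iHPC, below all TLR7.1 Mono libraries at 86.3 to 127 CPM (median 111), with -1.47 ± 0.32 (adjusted p = 0.000443). So the 2 adjacent genes were called in opposite directions in iHPC against Mono, though not on thinned counts, where Cmpk2 had an adjusted p of 0.216. Cmpk2 was also lower in iHPC than in TLR7.1 RPM, with overlap, at -1.10 ± 0.33 (adjusted p = 0.0108), and its adjusted p was 0.0721 without mouse 24304, 0.440 on thinned counts and 0.0892 with the spread taken from the libraries compared.
Isg20 was at 69.4 to 153 CPM (median 121) in TLR7.1 Mono, 96.3 to 435 CPM (median 240.3) in TLR7.1 RPM and 95.1 to 307 CPM (median 221) in iHPC. It was higher in TLR7.1 RPM than in Mono (1.10 ± 0.38, adjusted p = 0.0188), with overlap. That call was lost without mouse 24308 (adjusted p = 0.105) or 24304 (adjusted p = 0.0677), without the filter on low counts (0.0600) and on thinned counts (0.0520). In WT mice it was lower in RPM than in Mono, at -1.44 ± 0.42 (adjusted p = 0.00482). Samd9l, a restriction factor for poxviruses, was at 35.9 to 218 CPM (median 116) in TLR7.1 RPM and 232 to 390.4 CPM (median 354) in iHPC. It was higher in iHPC, with no overlap, at 1.48 ± 0.28 (adjusted p = 0.000122), and was not called between iHPC and Mono.

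Of the membrane restriction factors, Bst2 encodes tetherin, which holds budding virus at the cell surface. It was at 180.2 to 241 CPM (median 216) in TLR7.1 Mono, 212 to 363 CPM (median 339) in TLR7.1 RPM and 116 to 159 CPM (median 133) in iHPC. All iHPC libraries lay below all Mono and RPM libraries, with -0.68 ± 0.15 (adjusted p = 0.000335) and -1.27 ± 0.15 (adjusted p = 3.93e-08). RPM were higher than Mono in WT (0.53 ± 0.15, adjusted p = 0.00327) and TLR7.1 mice (0.59 ± 0.14, adjusted p = 0.00108), with adjusted p of 0.0503 and 0.0694 on thinned counts. The RPM level was lowest in the largest library of each genotype, at 256 CPM in WT (1511480 counts) and 212 in TLR7.1 mice (1257240 counts). The value of 212 lay within the TLR7.1 Mono range, and that of 256 lay above all WT Mono libraries. The part of library size in these 2 calls was not tested. Ifitm2 was higher in iHPC than in TLR7.1 RPM, at 0.63 ± 0.16 (adjusted p = 0.00247). Ifitm3 was at 222 to 452 CPM (median 354) in iHPC, below all TLR7.1 Mono libraries at 505 to 702 CPM (median 524), with -0.66 ± 0.20 (adjusted p = 0.0103), and its adjusted p was 0.0956 without mouse 24380.

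The PARP genes add ADP-ribose to proteins, and Dtx3l is the ligase partner of Parp9. Of these 5 genes Parp12 was lower than in Mono in RPM of both genotypes and in iHPC, at -1.52 ± 0.29 in TLR7.1 RPM and -2.03 ± 0.29 in iHPC. Dtx3l was lower in iHPC than in Mono, at -0.78 ± 0.26 (adjusted p = 0.0161), but not on thinned counts, at -0.57 (adjusted p = 0.196). Parp14 was at 249 to 357 CPM (median 303) in TLR7.1 Mono, 158 to 443 CPM (median 256) in TLR7.1 RPM and 176 to 398 CPM (median 216) in iHPC, with overlap between all groups. Parp9, Parp10 and Parp14 were not called in any comparison.

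Trim30c had the widest difference of the 50 genes. It was at 25.2 to 51.5 CPM (median 43.1) in TLR7.1 Mono and 10.9 to 39.1 CPM (median 19.6) in TLR7.1 RPM, while 5 of 6 iHPC libraries had 0 counts. The iHPC libraries together held 2 counts, against 388 in TLR7.1 Mono and 100 in TLR7.1 RPM. The ratio of pooled, normalised levels was 0.00772 against Mono (95% exact interval 0.000931 to 0.0281) and 0.0146 against RPM (0.00175 to 0.0543). These intervals cover counting error only. The test across all genes called it lower in both comparisons (adjusted p = 4.8e-08 and 1.6e-06). Trim30a, a near copy and an inhibitor of Toll-like receptor signalling, was lower in iHPC as well, at -1.16 ± 0.19 (adjusted p = 7.3e-06) against Mono and -1.21 ± 0.19 (adjusted p = 7.16e-06) against RPM. Trim30d was lower against Mono and not called against RPM, at -1.04 ± 0.28 (adjusted p = 0.00399) against Mono. On thinned counts that call was lost, at -0.76 (adjusted p = 0.0806). These 3 genes lie beside each other on chromosome 7, and how reads were shared between them is not given in the sources used here.
Sp100 was at 798 to 920.2 CPM (median 852) in TLR7.1 Mono, 251 to 383 CPM (median 348) in TLR7.1 RPM and 173 to 347 CPM (median 293) in iHPC. Mono lay above both others, with -1.32 ± 0.17 (adjusted p = 1.35e-07) and -1.56 ± 0.17 (adjusted p = 7.04e-09). Daxx, a histone chaperone of the same nuclear bodies, was lower too, at -1.54 ± 0.31 (adjusted p = 0.000136) in RPM and -1.84 ± 0.31 (adjusted p = 1.57e-05) in iHPC. Phf11b and Phf11d, neighbouring genes of PHD finger proteins, were lower in TLR7.1 RPM than in Mono (-1.21 ± 0.32 and -1.40 ± 0.30) and higher in iHPC than in TLR7.1 RPM, at 0.95 ± 0.32 (adjusted p = 0.0247) and 1.16 ± 0.30 (adjusted p = 0.00351). The iHPC call of Phf11b was lost without mouse 24068 (adjusted p = 0.0858), 24308 (0.0771) or 24261 (0.0648), and with the spread taken from the 12 libraries compared (0.138). That of Phf11d was lost on thinned counts, at 0.77 (adjusted p = 0.169). Phf11d was at 109 to 193 CPM (median 152) in TLR7.1 Mono, 19.9 to 88.5 CPM (median 63.1) in TLR7.1 RPM and 45.8 to 201 CPM (median 136) in iHPC.

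Of the other 9 interferon-induced genes, 7 were lower in iHPC than in Mono and 1 was higher. The higher one was Ifi27, which encodes a small membrane protein of mitochondria and the nuclear envelope. It was at 42.8 to 77.0 CPM (median 55.4) in WT Mono, 54.2 to 94.7 CPM (median 70.0) in TLR7.1 Mono, 244 to 473 CPM (median 385) in WT RPM, 282 to 461 CPM (median 430.0) in TLR7.1 RPM and 162 to 440.5 CPM (median 347) in iHPC. Every RPM and iHPC library lay above every Mono library, with 2.67 ± 0.21 (adjusted p = 1.92e-12) in WT RPM, 2.47 ± 0.21 (adjusted p = 8.13e-12) in TLR7.1 RPM and 2.25 ± 0.20 (adjusted p = 8.67e-11) in iHPC. Ifi27l2a, its neighbour on chromosome 12, was higher in RPM than in Mono, at 0.82 ± 0.30 (adjusted p = 0.0224) in WT and 0.81 ± 0.29 (adjusted p = 0.0221) in TLR7.1 mice. Its RPM level was highest in the smallest library of each genotype and lowest in the largest. In WT RPM it was 599 CPM at 95002 counts and 111 at 1511480. In TLR7.1 RPM it was 618 at 268275 and 138 at 1257240. The values of 111 and 138 lay below every Mono library of their genotype, where the lowest were 142 and 167 CPM. The part of library size in the RPM calls was not tested. In iHPC Ifi27l2a was lower than in Mono, at -1.75 ± 0.31 (adjusted p = 2.37e-05), and than in TLR7.1 RPM, at -2.56 ± 0.32 (adjusted p = 1.1e-07). The RPM calls of Ifi27l2a were lost without any 1 of several mice, with adjusted p from 0.0703 without mouse 24380 and 0.0843 without mouse 24068 in TLR7.1 mice, and from 0.0649 without mouse 24214 to 0.0824 without mouse 24323 in WT mice. On thinned counts both were lost too, with adjusted p of 0.0641 and 0.0859.
Lgals9 encodes galectin-9, a secreted lectin. It was at 478 to 596 CPM (median 541) in WT Mono, 518 to 565 CPM (median 538) in TLR7.1 Mono, 207 to 457 CPM (median 329) in TLR7.1 RPM and 26.2 to 130.3 CPM (median 53.5) in iHPC. The iHPC libraries lay below all others of TLR7.1 mice, with -3.21 ± 0.30 (adjusted p = 1.29e-10) against Mono and -2.50 ± 0.30 (adjusted p = 4.66e-08) against RPM. The smaller fall from Mono to TLR7.1 RPM (-0.72 ± 0.26, adjusted p = 0.0261) was lost without mouse 24068, 24107, 24380 or 24304, with adjusted p from 0.0512 to 0.0912. Ifi44 was at 10.8 to 125 CPM (median 30.8) in TLR7.1 Mono, 21.7 to 193 CPM (median 71.6) in TLR7.1 RPM and 0 to 13.3 CPM (median 5.06) in iHPC, where the 6 libraries together held 32 counts. It was lower in iHPC than in RPM, with no overlap (-3.86 ± 0.78, adjusted p = 0.000251), and than in Mono, with overlap (-3.09 ± 0.76, adjusted p = 0.00148). Lgals3bp, a secreted glycoprotein, was at 367 to 499 CPM (median 445) in TLR7.1 Mono, 400.0 to 626 CPM (median 482) in TLR7.1 RPM and 151 to 353 CPM (median 278) in iHPC. It was lower in iHPC than in Mono (-0.81 ± 0.19, adjusted p = 0.000855) and RPM (-0.96 ± 0.19, adjusted p = 0.000213), with no overlap. Ifi35 and Xaf1 were lower than in Mono in iHPC and in RPM of both genotypes, with no overlap, at -1.17 ± 0.27 and -1.36 ± 0.19 in iHPC. Tor3a was lower in iHPC than in Mono, at -0.69 ± 0.19 (adjusted p = 0.0047), but not on thinned counts, at -0.41 (adjusted p = 0.290). Rtp4 was not called in any comparison, but with the mouse as a block it was lower than in Mono in iHPC, at -0.82 (adjusted p = 0.0190), and in WT RPM, at -0.86 (adjusted p = 0.0157).

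Markers of other cells were also uneven between these populations. The summed level of 5 basophil and mast cell markers was 2.78 to 3011 CPM in iHPC, 1.21 to 10.2 in TLR7.1 Mono and 0 to 5.21 in TLR7.1 RPM. For 8 neutrophil markers it was 7.36 to 1310 (median 209), 69.1 to 1546 (median 169) and 8.67 to 404 (median 26.9) in the same order. For 5 NK cell markers it was 0 to 429 (median 0), 1.85 to 25.8 (median 6.01) and 0 to 29.5 (median 2.17). That of 7 erythroid markers was 683 to 1926 in iHPC, at most 204 in TLR7.1 Mono and 1530.1 to 2982 in TLR7.1 RPM, and that of 5 platelet and megakaryocyte markers was 139 to 247, 0 to 16.3 and 0 to 112. Lymphoid markers were higher in TLR7.1 RPM than in TLR7.1 Mono, with 7 of 7 B cell, 4 of 4 tested plasma cell and 5 of 5 tested T cell markers called. The summed level of the 5 plasma cell markers was 4.19 to 17.8 CPM in TLR7.1 Mono, 112 to 2048 in TLR7.1 RPM and 123 to 156 in iHPC. In iHPC against TLR7.1 RPM, 5 of 7 B cell, 2 of 4 plasma cell and 4 of 5 T cell markers were called lower. In WT RPM against WT Mono, 4 of 7, 3 of 4 and 3 of 5 were called higher. The shares of all genes called in these 3 comparisons were 23.9% higher, 13.5% lower and 23.7% higher. The part of these markers in the differences of the 50 genes was not tested.

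The rest of the interferon pathway was read from lists. Of 18 type I interferon genes, 8 matched an identifier. Ifnb1 had 1 count and Ifnk 8 counts over all 30 libraries, and the other 6 had 0, so transcripts of these 8 were not detectable at this depth beyond these counts. The listed genes without an identifier were not measured. Of 10 receptor, kinase and transcription factor genes, none was called in either genotype comparison. In iHPC 6 were lower than in Mono and 1 was higher, in TLR7.1 RPM 5 were lower and 0 higher, and in WT RPM 4 were lower and 1 higher. Of all genes tested, 19.4%, 22.6% and 22.5% were called lower in these comparisons, and 19.3%, 23.9% and 23.7% higher. Irf7, the factor that amplifies interferon production, was at 475 to 661 CPM (median 576) in TLR7.1 Mono, 153 to 268 CPM (median 176) in TLR7.1 RPM and 73.6 to 174 CPM (median 132) in iHPC. Mono lay above both others, with -1.60 ± 0.23 (adjusted p = 7.44e-07) and -2.19 ± 0.23 (adjusted p = 3.31e-09). Irf9, the DNA-binding part of the response complex, was lower in both as well, at -1.64 ± 0.19 (adjusted p = 6.71e-09) in RPM and -1.64 ± 0.18 (adjusted p = 7.36e-09) in iHPC.
Of 5 genes that restrain the signal, 4 were higher in iHPC than in TLR7.1 RPM and 0 lower, where 13.6% of all genes were called higher and 13.5% lower. Socs3, an inhibitor of cytokine receptor kinases, was at 61.5 to 101 CPM (median 72.3) in TLR7.1 Mono, 0 to 20.6 CPM (median 5.32) in TLR7.1 RPM and 49.3 to 116 CPM (median 75.6) in iHPC, which lay above RPM without overlap (3.26 ± 0.51, adjusted p = 7.26e-06). Ifngr1, a chain of the interferon gamma receptor, was lower in TLR7.1 than in WT RPM, at 265 to 367 CPM (median 318) against 462 to 735 (median 560.2), with no overlap (-0.88 ± 0.14, adjusted p = 0.000135). Ifnlr1, a chain of the interferon lambda receptor, was at 17.6 to 77.8 CPM (median 47.3) in iHPC and 0 in all TLR7.1 RPM libraries, with a highest value of 2.91 in TLR7.1 Mono. It was higher in iHPC than in Mono, at 5.21 ± 0.67 (adjusted p = 3.4e-07).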

How the data were processed

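RNA of 500 sorted cells per library was made into SMART-Seq v4 and Nextera XT libraries, per the labels' protocols. The deposited values are whole-number counts per Ensembl gene in 1 table of 30 libraries, with 0 columns that match no sample. The submitters' processing notes name CASAVA 1.8.2, FastQC, Bowtie, TopHat, SAMtools, Picard and HTSeq 0.4.1 and the build NCBIM37. For the annotation, the strand setting and the treatment of duplicates and shared reads, nothing was given in the sources used here. Symbols came from GENCODE M21, which matched 32919 identifiers. Promoters came from RefSeq (GRCm38.p6), 250 bases before to 50 after each gene's start, for names and sequence only.

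Counts were fitted in edgeR 4.0.16 (R 4.3.3) with its low-count filter, TMM scaling and 1 quasi-likelihood model of the 5 groups over 30 libraries. DESeq2 1.42.0 was an alternative, and scripts were tested on simulated data. CPM values use the TMM-scaled totals. Library totals of 95002 to 1932427 set the precision: scarce genes are measured least well in the smallest. Levels varied with totals as well. In RPM, Ifitm3, Ifi27l2a, Bst2 and Trim30a were at their lowest in the largest library of each genotype. Of the 50 genes, 7 in WT and 13 in TLR7.1 RPM were lowest in that library, and 14 and 4 were highest. Thinning evens out finished counts, so it could not undo a shift of this kind. Reads carry no molecular identifiers. The 50 genes and the gene lists were chosen with earlier results of these data known. Genes named with group values were the member of each role with the highest mean CPM, and the 3 largest higher and lower calls of each comparison with at least 20 CPM in the higher group. Other members are named with values where a role or comparison turns on them, and these were chosen after their values were seen. Alternatives were DESeq2, its size factors in edgeR, no filter, only the libraries compared, collection date or mouse as a term, counts thinned to 95002, each mouse left out, and, chosen after seeing the data, the 3 libraries under 300000 counts left out. Libraries of 1 mouse share an animal. Correlations of their deviations from the group means, over 24 same-mouse pairs, ran from -0.0795 to 0.196, with 2 over 0.1.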

Additional observations from a re-analysis of the deposited data

Results flagged for a closer look

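Of 125 sets of 6 libraries (24 named genes and the summed level, in 5 groups), 7 held a library whose gap to the next, as a share of the group's range, passed Dixon's 95% critical value, where chance gives about 1 in 20. In TLR7.1 Mono, the library of mouse 24380 was at 702 CPM in Ifitm3, above the next at 574, and at 288 CPM in Usp18, below the next at 337. That library held 1157446 counts, the fewest of its group. Its Ifitm3 reads per exonic base, at 1.15, were the lowest of the group, where the highest was 1.28. In TLR7.1 RPM, mouse 24068 was at 193 CPM in Ifi44 (next 79.1), mouse 24308 at 15.2 CPM in Oasl1 (next 4.29) and mouse 24107 at 212 CPM in Bst2 (next 323). The library of mouse 24107 was the largest of TLR7.1 RPM, at 1257240 counts. The part of library size in these values was not tested. In iHPC, mouse 24107 was at 2.22 CPM in Trim30c, where the others were at 0, and mouse 24380 at 0 CPM in Oas1g, where the next was at 13.3.

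The genotype effect differed between RPM and Mono, by the interaction test, for Rsad2 by 2.21 and for Isg20 by 2.54 on the log2 scale, higher in RPM for both.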

How the results depend on the processing

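Over the alternatives tried, 2660 values of named genes stayed on their side of the threshold, 57 were no longer past it and 19 were newly past it. Of the 947 values called with or without the alternative, 0 changed sign, and of the 1789 called in neither, 143 did. The 6 calls between TLR7.1 and WT RPM became 1 with the fit limited to the 12 RPM libraries and 2 on thinned counts, and ran from 4 to 10 with 1 mouse left out, the 10 without mouse 24117. The 2 calls of the interaction became 1 on thinned counts and 1 without the filter on low counts, and ran from 1 to 2 with 1 mouse left out. In each case the cause was not tested. With 1 mouse left out, calls ran from 32 to 34 in iHPC against Mono, 11 to 16 in iHPC against RPM, 27 to 28 in TLR7.1 RPM against Mono and 28 to 33 in WT RPM against Mono.

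With the mouse as a replicate block, 34 genes were called in iHPC against Mono, 17 in iHPC against RPM, 30 in TLR7.1 RPM against Mono, 34 in WT RPM against Mono and 2 in the interaction. None of these moved a count by over 1.5 times. The block ended the calls of Herc6 in WT RPM against Mono and Eif2ak2 in iHPC against RPM (-0.66, adjusted p = 0.0675), and added 7, among them Ifi44 in WT RPM against Mono (1.74, adjusted p = 0.0275) and Ifit2 in iHPC against RPM (0.84, adjusted p = 0.0391). No paired analysis was possible because no mouse gave libraries of both genotypes in TLR7.1 against WT Mono or RPM. Library totals, down to 95002 counts in RPM, limit what could be called for scarce genes such as Oas3.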
